A study of Homo sapiens with 11 samples.

Results

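The 36 genes described here encode proteins that make ribosomes in the nucleolus. They were taken by name from a fixed list, whatever their measured values, and the reads of each gene were summed over its transcripts and compared between 3 treatments. All 36 were found among the 61542 genes of the annotation, and all 36 were among the 17033 genes that passed the filter on low counts.

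Ribosomes are built around ribosomal RNA (rRNA), which RNA polymerase I (Pol I) transcribes inside the nucleolus as one long precursor. Small nucleolar RNAs (snoRNAs) packed with proteins guide the chemical modification of that precursor: box C/D particles, which hold the methyltransferase fibrillarin (FBL), direct methylation of the ribose, and box H/ACA particles, which hold dyskerin (DKC1), turn uridine into pseudouridine. Large assemblies then fold and cut the precursor into the small (40S) and the large (60S) subunit. Cells that divide need a steady supply of new ribosomes, and many of these genes are known as targets of the transcription factor MYC.

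The cells were SK-MEL-103, a melanoma line of human origin, and their RNA was sequenced in bulk. They were treated for 6 days with 0.25 µM etoposide (n = 4), which poisons topoisomerase II and breaks DNA, with 0.5 µM tozasertib (n = 3), an inhibitor of the Aurora kinases that run mitosis, or with the solvent DMSO alone (n = 4), and the medium of every group was renewed on day 3. The study used both drugs to induce senescence, a lasting arrest of the cell cycle. Tozasertib replicate 3 was not analysed here, and since no source states that replicates were independent cultures, the p-values cover the spread seen here, part or all of which may be technical.

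Libraries held 28547842 to 40170233 reads in etoposide-treated cells, 27882689 to 56534763 in tozasertib-treated cells and 28863009 to 32957818 in DMSO-treated cells. The level of a gene is its CPM, which relates its reads to the total of the library, scaled by the TMM method of edgeR, and fold changes are log2 values fitted by edgeR with their standard error (SE). A gene was called higher or lower where the edgeR adjusted p was under 0.05. The cell-cycle inhibitor CDKN1A was higher under etoposide and under tozasertib than under DMSO (log2 fold changes 1.62 and 1.71). The proliferation genes MKI67, TOP2A and CCNB1 and the lamin gene LMNB1 were lower under both. The lineage factor SOX10 was present at 317.2 CPM or more in every sample, whereas the pigment cell genes MLANA, TYR and DCT stayed under 0.5 CPM in all 11. SOX10 and PAX3 were called lower under both drugs than under DMSO. MITF and S100B were called higher under both, and PMEL was called higher under tozasertib. PMEL reached at most 4.16 CPM and S100B 3.59 CPM. Among markers of other cell types, DCN, KRT5, KRT1, TP63, PTPRC, CD3E and CD14 were also under 0.5 CPM in all 11. From the same lists, KRT10 was at 42.9 to 63.3 CPM and CD68 at 34.6 to 68.0 CPM across all 11. KRT14 reached at most 3.42 CPM and LYZ 1.01 CPM. The 6 fibroblast genes summed to 154.1 to 170.9 CPM under etoposide and 135.1 to 140.3 CPM under tozasertib, mostly from LUM and COL1A1. Under DMSO they summed to 49.6 to 58.4 CPM, with LUM at 21.8 to 24.7, TWIST2 at 23.8 to 28.6 and COL1A1 at 2.37 to 4.11 CPM. LUM and COL1A1 were called higher under both drugs and TWIST2 lower. The part of these marker genes in the results was not tested. DMSO replicates 1 and 4 stood apart. Across genes, the deviation from the group mean correlated with transcript length at a Spearman rho of -0.476 in DMSO replicate 1 and 0.401 in DMSO replicate 4, against -0.076 to 0.222 in the other 9 libraries. In a bulk sample, fewer cells of a kind and less RNA per cell cannot be told apart, and CPM gives a share of the RNA sequenced, not an amount per cell.

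The set did not move in one direction. Under etoposide 11 of the 36 genes were higher than under DMSO, 13 were lower and 12 were not called, so 24 were called, or 66.7%, where 58.3% of all genes tested were called (27.7% higher and 30.6% lower). Under tozasertib 12 were higher than under DMSO, 11 were lower and 13 were not called, or 63.9% called against 59.2% of all genes (29.9% higher and 29.4% lower). Both shares lay near that background. The median log2 fold change of the 36 was -0.06 under etoposide and -0.03 under tozasertib, beside -0.01 and 0.02 over all genes tested. Etoposide and DMSO samples did not overlap for 21 of the 36, against 51.2% of all genes, and tozasertib and DMSO samples did not overlap for 22, against 59.8%. The comparisons of each drug share the same DMSO samples. The share of all genes called alike under both drugs was not counted, so the counts that follow have no background beside them. With that in mind, 11 genes were called higher under both drugs (DDX21, MYBBP1A, NOL6, NOP2, POLR1A, POLR1B, RRN3, RRP12, RRS1, WDR12 and WDR43), 10 were called lower under both (BOP1, DKC1, FBL, NCL, NHP2, NOP56, NOP58, NPM1, TCOF1 and UBTF), and 10 were called under neither (DDX10, GNL3, NOLC1, NOP10, NOP14, NOP16, PPAN, UTP15, UTP20 and UTP4).

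**Figure D1:**
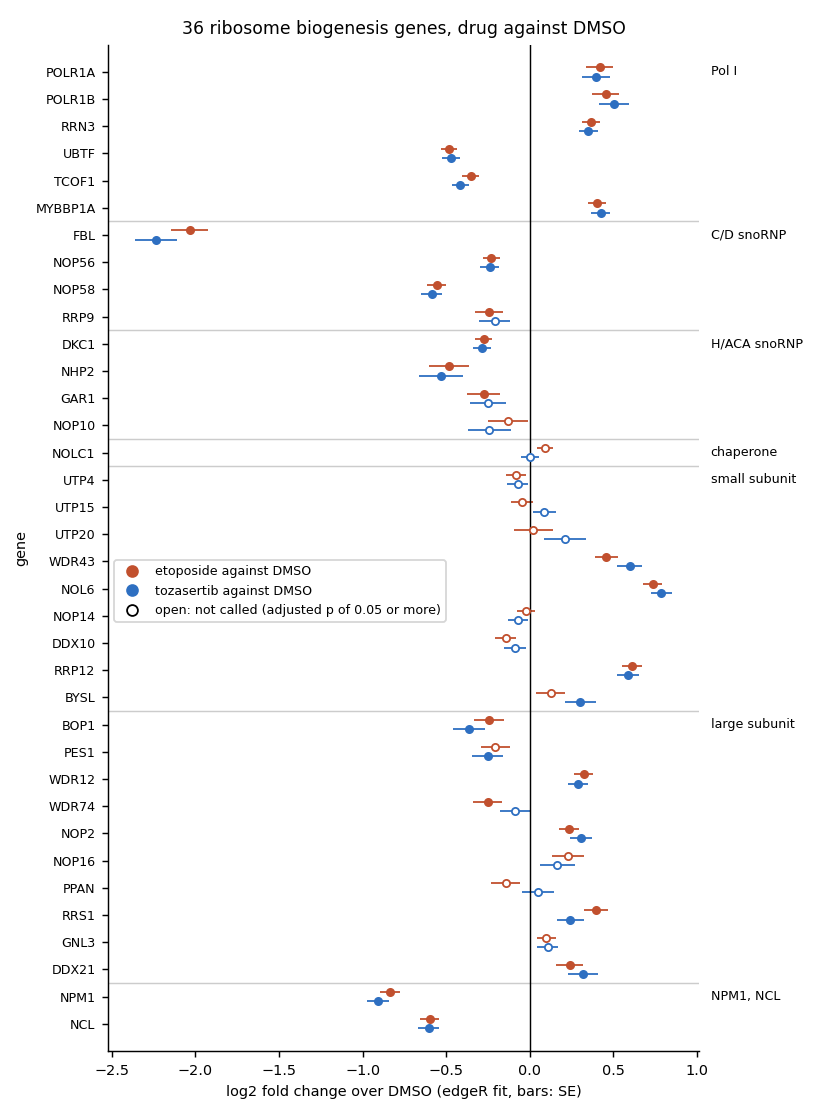
Fitted log2 fold change over DMSO (x axis, with SE bars) of each of the 36 genes (y axis, grouped by role) under etoposide (orange) and tozasertib (blue); open circles were not called. FBL stands alone at -2.03 and -2.23, while NOL6, RRP12 and WDR43 lie at the upper end, between 0.46 and 0.79.

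Promoters are shown for FBL, at the lower end of this range, and for NOL6 and WDR43, at its upper end. That of PES1, which lies between them, is shown as well. Each holds the letters CACGTG, the E-box to which MYC and its partner MAX are known to bind. Other genes of the set also hold it and are not printed, among them NOP10 and UTP20, which were called under neither drug. Nothing is read from which promoters are printed. The motif reads the same on both strands, and it was the only motif searched. FBL (ENSG00000105202.9) lies at chr19:39834458-39846379 on the minus strand, PES1 (ENSG00000100029.18) at chr22:30576625-30607083 on the minus strand, NOL6 (ENSG00000165271.17) at chr9:33461353-33473930 on the minus strand and WDR43 (ENSG00000163811.12) at chr2:28894667-28948219 on the plus strand (GENCODE release 44, GRCh38). Each stretch runs from 120 bases before the RefSeq transcription start to 30 bases after it (build GRCh38.p14, 150 bases, read along the gene), with the motif in capitals: FBL from chr19:39846350-39846499, PES1 from chr22:30591881-30592030, NOL6 from chr9:33473895-33474044 and WDR43 from chr2:28894547-28894696.
FBL: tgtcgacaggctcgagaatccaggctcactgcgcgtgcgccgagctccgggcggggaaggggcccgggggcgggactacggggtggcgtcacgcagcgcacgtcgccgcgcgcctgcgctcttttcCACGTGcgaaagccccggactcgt
PES1: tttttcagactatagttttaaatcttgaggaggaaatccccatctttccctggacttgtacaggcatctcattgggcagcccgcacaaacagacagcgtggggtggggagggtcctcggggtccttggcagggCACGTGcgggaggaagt
NOL6: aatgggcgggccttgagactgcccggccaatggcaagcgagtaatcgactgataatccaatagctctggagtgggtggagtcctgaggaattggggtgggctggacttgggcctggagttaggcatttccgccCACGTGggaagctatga
WDR43: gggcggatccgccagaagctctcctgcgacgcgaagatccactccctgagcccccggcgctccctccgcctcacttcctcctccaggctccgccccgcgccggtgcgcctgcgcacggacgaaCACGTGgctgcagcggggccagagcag

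Of the 36 genes, 30 had a promoter window in the RefSeq table (250 bases before the start to 50 after it), and 15 of these 30, or 50%, held the motif, beside 2396 of 27305 genes, or 8.77%, over the whole table. The motif was in the window of 5 of 9 genes called higher under both drugs, of 1 of 7 called lower under both, and of 9 of the 14 others. The one gene among those called lower under both drugs was FBL. A match in a window is a description of its letters, and binding was not measured here. MYC itself was at 37.7, 47.3, 41.6 and 38.5 CPM under etoposide, at 47.3, 60.3 and 47.5 CPM under tozasertib and at 52.7, 110.3, 85.8 and 70.1 CPM under DMSO. It was called lower under both drugs, with log2 fold changes of -0.95 (edgeR adjusted p = 0.000478) and -0.63 (edgeR adjusted p = 0.0130), although tozasertib and DMSO samples overlapped.

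Among the genes of Pol I and its factors, the subunits POLR1A and POLR1B and the recruiting factor RRN3 were higher under both drugs. UBTF and TCOF1 were lower. All 6 were called in each comparison, 4 higher and 2 lower, beside 58.3% of all genes tested called under etoposide and 59.2% under tozasertib. With 6 genes nothing is read from this share. POLR1A, the largest subunit of Pol I, was at 83.3, 85.1, 92.8 and 93.7 CPM under etoposide, at 88.6, 89.1 and 84.4 CPM under tozasertib and at 56.9, 63.5, 73.2 and 72.01 CPM under DMSO. Every drug sample lay above every DMSO sample, with log2 fold changes of 0.42 ± 0.078 under etoposide (SE, edgeR adjusted p = 0.000475) and 0.40 ± 0.084 under tozasertib (SE, edgeR adjusted p = 0.00121). POLR1B, the second largest subunit, had log2 fold changes of 0.45 and 0.50. RRN3, which brings the polymerase to the promoter, was at 63.7, 66.9, 68.7 and 65.9 CPM under etoposide, at 63.1, 64.6 and 69.0 CPM under tozasertib and at 51.6, 53.4, 51.1 and 49.7 CPM under DMSO, again without overlap (log2 fold changes 0.37 and 0.35). Pseudogenes of RRN3 held 8.08% as many reads as RRN3 itself, so that part of its count may be split between copies. MYBBP1A, a MYB-binding protein of the nucleolus, was higher as well, with log2 fold changes of 0.40 and 0.42.

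UBTF encodes the upstream binding factor UBF, which holds rRNA genes in an open state. Its level was 113.0, 118.2, 116.1 and 115.0 CPM under etoposide, 113.6, 119.8 and 116.1 CPM under tozasertib and 169.2, 166.0, 156.3 and 154.5 CPM under DMSO. It fell by 0.48 on the log2 scale under etoposide (SE 0.049, edgeR adjusted p = 1.93e-06) and by 0.47 under tozasertib (SE 0.053, edgeR adjusted p = 5.98e-06). TCOF1, or treacle, a scaffold that binds UBF and Pol I, was at 91.0, 89.5, 92.1 and 93.3 CPM under etoposide, at 90.6, 87.2 and 85.1 CPM under tozasertib and at 112.8, 113.3, 118.7 and 122.7 CPM under DMSO. The drug samples lay below all DMSO samples for both genes, and TCOF1 fell by 0.35 under etoposide (edgeR adjusted p = 3.41e-05) and by 0.42 under tozasertib (edgeR adjusted p = 1.82e-05).

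UBTF makes a long protein of 764 residues, known as UBF1, and a shorter one of 727 residues, UBF2, which lacks part of a DNA-binding domain and is known as the weaker activator of Pol I. Reads were assigned by Salmon to 5 transcripts of each form, and the split was chosen for description after its values had been seen, so no test is given. Transcripts for the long form were at 41.8, 41.7, 41.4 and 40.9 CPM under etoposide, at 46.0, 64.3 and 53.2 CPM under tozasertib and at 79.8, 83.0, 79.2 and 65.1 CPM under DMSO. Transcripts for the short form were at 69.0, 74.5, 73.4 and 73.4 CPM under etoposide, at 65.8, 54.2 and 58.2 CPM under tozasertib and at 88.1, 81.0, 75.9 and 87.8 CPM under DMSO. The long form thus made up 35.8% to 37.8% of both forms under etoposide, 41.1% to 54.3% under tozasertib and 42.6% to 51.0% under DMSO. Etoposide samples lay below all others in this share, whereas tozasertib and DMSO samples overlapped. The forms differ by a short stretch, and the share rests on Salmon's estimate of how single reads divide between them.

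**Figure D2:**
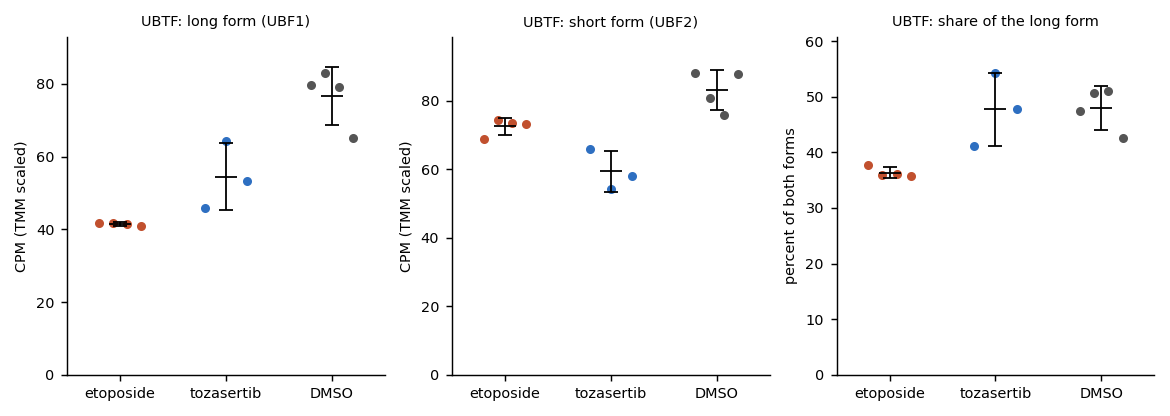
CPM of the transcripts for the long form (764 residues) and the short form (727 residues) of UBTF and the share of the long form in percent (y axes), by treatment (x axis); points are samples, bars the mean and SD. The 4 etoposide samples sit at 35.8% to 37.8% in the right panel, below the tozasertib and DMSO samples.

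The box C/D snoRNP genes held the largest change of the set. All 4 were lower under etoposide than under DMSO, and 3 were called lower under tozasertib. Over all genes tested, 30.6% were called lower under etoposide and 29.4% under tozasertib, and with 4 genes nothing is read from these counts. FBL, the methyltransferase of the particle, was at 39.98, 43.1, 43.6 and 41.9 CPM under etoposide, at 37.3, 35.6 and 37.1 CPM under tozasertib and at 221.3, 160.2, 169.3 and 139.5 CPM under DMSO. The drug samples sat close together and far below the DMSO samples, the highest of which was replicate 1. FBL fell by 2.03 on the log2 scale under etoposide (SE 0.11, edgeR adjusted p = 6.25e-09), a level 4.1-fold lower than under DMSO, and by 2.23 under tozasertib (SE 0.13, edgeR adjusted p = 7.6e-09), or 4.71-fold lower. In the order of all 17033 genes from the most negative log2 fold change, FBL stood at place 302 under etoposide and at place 277 under tozasertib. Its 4 most abundant transcripts all had lower means under both drugs. The most abundant of them was at 18.6 to 24.3 CPM under etoposide, 18.4 to 19.7 CPM under tozasertib and 76.4 to 129.9 CPM under DMSO.

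NOP58, the core protein that pairs with NOP56 on the snoRNA, fell by 0.56 on the log2 scale under etoposide (edgeR adjusted p = 2.05e-06) and by 0.59 under tozasertib (edgeR adjusted p = 3.07e-06), with means of 71.99 ± 1.8 CPM under etoposide (SD, n = 4), 70.5 ± 2.6 CPM under tozasertib (SD, n = 3) and 105.9 ± 7.1 CPM under DMSO (SD, n = 4). RRP9, the U3-specific protein of the class, was at 29.7 to 31.4 CPM under etoposide, 29.6 to 31.8 CPM under tozasertib and 29.9 to 41.8 CPM under DMSO. Those ranges overlapped, and its log2 fold change was -0.24 under etoposide (edgeR adjusted p = 0.0246) and -0.21 under tozasertib (edgeR adjusted p = 0.0634). The RRP9 call under etoposide ended without etoposide replicate 1 (edgeR adjusted p = 0.0553), without etoposide replicate 2 (0.0515) or without DMSO replicate 3 (0.0525), and RRP9 was called under tozasertib without DMSO replicate 4 (log2 fold change -0.28, edgeR adjusted p = 0.00428).

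FBL, NOP56, NOP58 and SNU13 are the 4 core proteins of a mature box C/D particle. Per transcript length, in TPM (the share of transcripts a gene holds, after dividing its reads by length), FBL made up 14.6%, 16.6%, 15.5% and 16.3% of their sum under etoposide and 14.7%, 13.6% and 14.1% under tozasertib, against 41.5%, 38.1%, 38.7% and 34.1% under DMSO. FBL was thus the most abundant of the 4 in each DMSO sample and the least abundant in each drug sample. SNU13, which is not among the 36 genes, was not called under either drug (log2 fold changes -0.06 and -0.19).

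The lower level of NOP56 as a gene was not shared by its protein-coding transcripts. As a gene it was at 172.8, 159.9, 167.3 and 156.2 CPM under etoposide, at 166.4, 164.6 and 158.3 CPM under tozasertib and at 202.1, 189.3, 193.9 and 185.0 CPM under DMSO. All drug samples lay below all DMSO samples, and NOP56 fell by 0.23 (edgeR adjusted p = 0.00171) and by 0.24 (edgeR adjusted p = 0.00232) on the log2 scale. The transcript NOP56-216, annotated without a coding frame, was at 5.46, 7.24, 5.49 and 5.38 CPM under etoposide, at 6.04, 6.03 and 6.61 CPM under tozasertib and at 50.8, 36.4, 35.6 and 26.5 CPM under DMSO. It was picked out after its values were seen and is given without a test. The protein-coding transcripts of NOP56 together were at 126.2, 129.3, 139.7 and 128.7 CPM under etoposide, at 120.7, 128.0 and 123.3 CPM under tozasertib and at 122.6, 119.4, 124.0 and 126.1 CPM under DMSO. With protein-coding transcripts alone, the direction of NOP56 turned round, to log2 fold changes of 0.14 under etoposide (edgeR adjusted p = 0.0189) and 0.08 under tozasertib (edgeR adjusted p = 0.18).

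The first exon of NOP56-216 is printed here because it is the only exon of this transcript not identical to one of the most abundant coding transcript. Of the 5 exons of NOP56-216, 4 are identical to exons of that coding transcript, which has 12, so NOP56-216 also lacks exons found there. The first spans chr20:2655946-2656214 (GRCh38, plus strand, 269 bases), whereas the matching exon of the coding transcript ends at position 2656034, so the rest is intron there. In capitals is the snoRNA gene SNORD86 (chr20:2656097-2656182, 86 bases), which lies wholly inside that exon.
NOP56-216 first exon: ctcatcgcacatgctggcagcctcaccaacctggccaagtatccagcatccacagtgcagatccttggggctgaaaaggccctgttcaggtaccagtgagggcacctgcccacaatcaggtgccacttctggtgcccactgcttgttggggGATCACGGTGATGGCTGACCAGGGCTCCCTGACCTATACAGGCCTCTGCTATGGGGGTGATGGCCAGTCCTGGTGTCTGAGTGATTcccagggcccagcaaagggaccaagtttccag
SNORD86 is a box C/D snoRNA and is known in human cells as an element that bears on how NOP56 is spliced. The annotation places 5 snoRNA genes inside NOP56, and snoRNA genes also lie inside NOP58 (4), DKC1 (2), WDR43 (3), PPAN (2), GNL3 (6) and NCL (3), as is common for genes of the translation machinery. The libraries were made from polyadenylated RNA, so these snoRNAs were not measured as such.

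**Figure D3:**
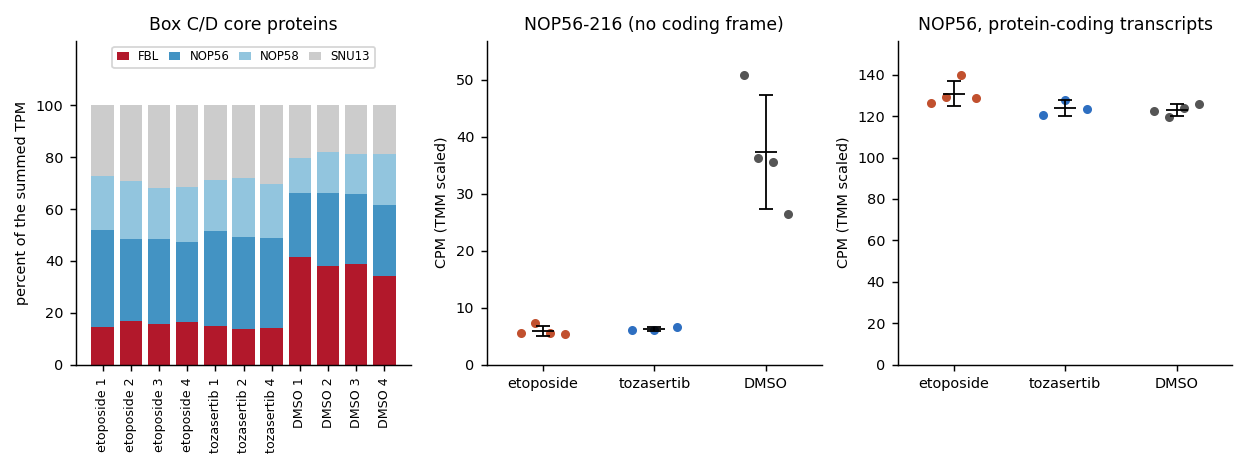
Left, the share of FBL, NOP56, NOP58 and SNU13 in their summed TPM (y axis, percent) in each sample (x axis); middle and right, CPM of the transcript NOP56-216 and of the protein-coding NOP56 transcripts (y axes) by treatment, with mean and SD. FBL takes 13.6% to 16.6% in drug samples and 34.1% to 41.5% in DMSO samples, and NOP56-216 stays at 7.24 CPM or below under both drugs.

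The 4 box H/ACA genes had negative log2 fold changes under both drugs, of which 3 were called under etoposide and 2 under tozasertib. The shares of all genes tested called lower were 30.6% and 29.4%, and with 4 genes nothing is read from these counts. DKC1, the pseudouridine synthase of the particle and of telomerase, was at 80.3, 80.0, 89.2 and 85.0 CPM under etoposide, at 81.8, 83.4 and 83.5 CPM under tozasertib and at 105.5, 100.2, 100.7 and 98.2 CPM under DMSO. The drug samples lay below every DMSO sample, with log2 fold changes of -0.27 ± 0.052 under etoposide (SE, edgeR adjusted p = 0.000478) and -0.29 ± 0.056 under tozasertib (SE, edgeR adjusted p = 0.000653). NHP2, a core protein that binds the H/ACA RNA, fell by 0.48 (edgeR adjusted p = 0.00397) and by 0.53 (edgeR adjusted p = 0.00375). GAR1, which helps the particle release its product, fell under etoposide by 0.28 (edgeR adjusted p = 0.0287) and had a log2 fold change of -0.25 under tozasertib (edgeR adjusted p = 0.0592). NOP10, the smallest core protein, was at 59.8, 63.7, 69.8 and 65.8 CPM under etoposide, at 57.9, 58.8 and 63.1 CPM under tozasertib and at 92.1, 60.1, 72.6 and 58.6 CPM under DMSO. Those groups overlapped, and NOP10 was not called under etoposide (log2 fold change -0.13, edgeR adjusted p = 0.369) or tozasertib (-0.24, edgeR adjusted p = 0.123). DMSO replicate 1 was the highest library for all 4 genes. The GAR1 call under etoposide ended without etoposide replicate 1 (edgeR adjusted p = 0.0554) or replicate 3 (0.0702), while GAR1 was called under tozasertib without DMSO replicate 2 (edgeR adjusted p = 0.0306) or 4 (0.0435), without the filter on low counts (0.0271) or with the replicate number as a block (0.0481), and NOP10 without the filter (0.0228) or without DMSO replicate 4 (log2 fold change -0.31, edgeR adjusted p = 0.0381). NOLC1, a chaperone that carries snoRNPs into the nucleolus, was at 178.4 to 195.4 CPM under etoposide, 173.8 to 178.8 CPM under tozasertib and 168.5 to 182.1 CPM under DMSO, and was not called. Its log2 fold change under etoposide was 0.09, and it was called higher there by DESeq2 (0.12, adjusted p = 0.021), by edgeR with library size alone (0.14, adjusted p = 0.0368) and by edgeR on protein-coding transcripts (0.27, adjusted p = 0.0468).

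NPM1 and NCL were the most abundant of the 36 genes in reads, and both were lower under both drugs. NPM1, or nucleophosmin, a histone chaperone that shapes the outer layer of the nucleolus, was at 513.3, 557.5, 578.6 and 555.1 CPM under etoposide, at 515.2, 523.7 and 534.4 CPM under tozasertib and at 1081.1, 955.0, 983.1 and 913.6 CPM under DMSO. It fell by 0.84 on the log2 scale under etoposide (SE 0.061, edgeR adjusted p = 7.66e-08) and by 0.91 under tozasertib (SE 0.066, edgeR adjusted p = 9.32e-08). NCL, or nucleolin, which binds rRNA and its genes, was at 504.2, 512.7, 548.3 and 513.2 CPM under etoposide, at 527.3, 523.8 and 502.9 CPM under tozasertib and at 840.0, 806.3, 788.8 and 712.5 CPM under DMSO. Neither gene had overlapping groups, and NCL fell by 0.60 under etoposide (edgeR adjusted p = 1.22e-06) and by 0.60 under tozasertib (edgeR adjusted p = 2.91e-06). The annotation lists 49 pseudogenes of NPM1, to which only 0.213% as many reads were assigned as to NPM1 itself.

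The small subunit genes of the set were higher or not called, and none of them was lower. Of 9 genes, 3 were higher under etoposide, or 33.3% beside 27.7% of all genes tested, and 4 under tozasertib, or 44.4% beside 29.9%. Fewer of the 9 were called in either direction (33.3% and 44.4%) than of all genes (58.3% and 59.2%), and with 9 genes nothing is read from these shares. NOL6, a scaffold of the small subunit processome, the particle that first folds the 40S part of the precursor, was at 131.6, 132.0, 147.0 and 144.3 CPM under etoposide, at 141.7, 139.0 and 151.1 CPM under tozasertib and at 81.6, 79.6, 83.0 and 89.4 CPM under DMSO. Its log2 fold change was 0.73 ± 0.059 under etoposide (SE, edgeR adjusted p = 2.12e-07) and 0.79 ± 0.063 under tozasertib (SE, edgeR adjusted p = 2.23e-07), the highest of the 36 in each comparison. RRP12, needed for late maturation and export of the subunit in yeast, was at 125.4, 132.9, 148.8 and 139.8 CPM under etoposide, at 128.8, 137.0 and 138.5 CPM under tozasertib and at 93.8, 88.2, 90.3 and 86.3 CPM under DMSO. WDR43, a processome protein of the UTP-A complex that binds early to the precursor, was at 87.5, 92.9, 93.1 and 98.4 CPM under etoposide, at 101.5, 101.2 and 104.7 CPM under tozasertib and at 58.1, 69.4, 71.3 and 72.2 CPM under DMSO. No drug sample overlapped a DMSO sample for these 3 genes, and log2 fold changes were 0.61 and 0.59 for RRP12 (edgeR adjusted p = 1.48e-06 and 4.34e-06) and 0.46 and 0.60 for WDR43 (edgeR adjusted p = 8.16e-05 and 1.43e-05).

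BYSL, or bystin, which acts late in 40S assembly, was called under tozasertib (log2 fold change 0.30, edgeR adjusted p = 0.0123) and not under etoposide (0.13, edgeR adjusted p = 0.227). The tozasertib call ended without tozasertib replicate 4 (edgeR adjusted p = 0.0701), and BYSL was called under etoposide without DMSO replicate 1 (log2 fold change 0.21, edgeR adjusted p = 0.0172). UTP20, a large scaffold protein of the processome, was at 52.8, 53.8, 54.3 and 57.7 CPM under etoposide, at 62.7, 59.0 and 65.1 CPM under tozasertib and at 43.0, 48.8, 53.0 and 70.7 CPM under DMSO. The 4 DMSO samples spanned those of both drugs, so neither difference exceeded the spread between replicates (log2 fold changes 0.02 and 0.21, edgeR adjusted p = 0.897 and 0.169). Without DMSO replicate 4, the highest library, UTP20 was called higher under tozasertib (log2 fold change 0.38, edgeR adjusted p = 0.0011). The UTP-A proteins UTP4 and UTP15, the processome factor NOP14 and the RNA helicase DDX10 were not called under either drug, with log2 fold changes between -0.14 and 0.09. UTP15 was called higher under tozasertib on length-scaled counts (log2 fold change 0.44, edgeR adjusted p = 0.017) and with library size alone (0.18, edgeR adjusted p = 0.0462), beside 0.09 in the fit reported. DDX10 was called lower under etoposide without DMSO replicate 1 (edgeR adjusted p = 0.0456) or etoposide replicate 3 (0.0488).

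**Figure D4:**
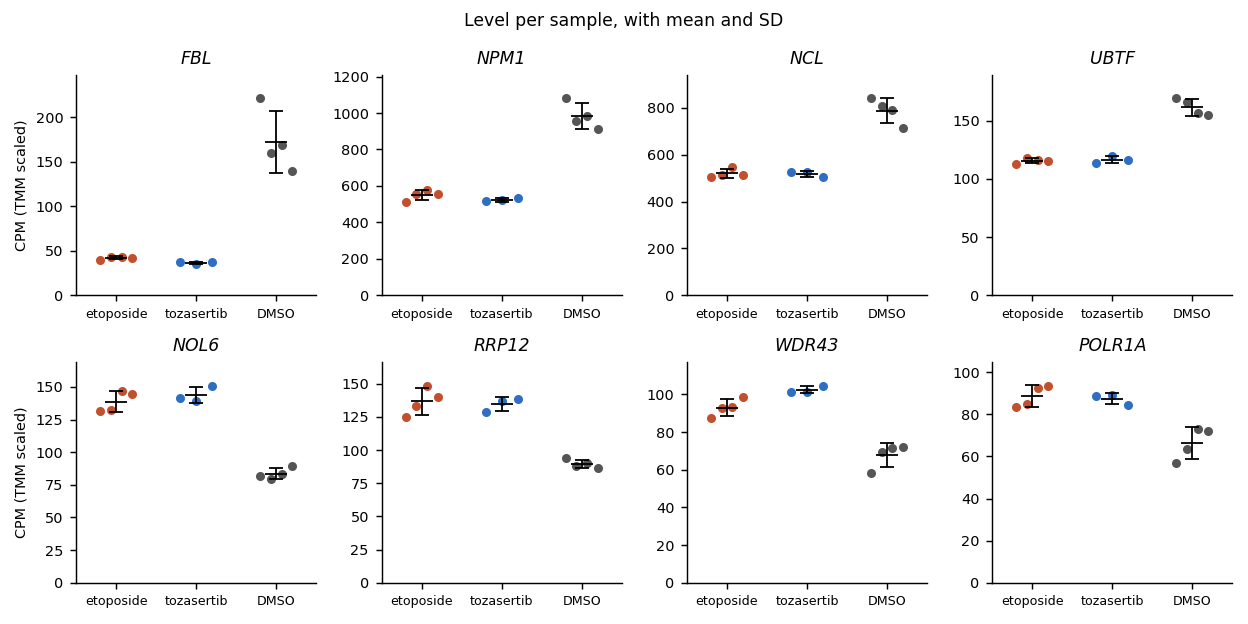
CPM per sample (y axes) of the 3 genes with the lowest and the 3 with the highest log2 fold change under each drug, and of UBTF and POLR1A, by treatment (x axis); points are samples, bars the mean and SD. In each panel the drug samples do not overlap the DMSO samples, with FBL at 35.6 to 43.6 CPM under the drugs and 139.5 to 221.3 CPM under DMSO.

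Among 10 genes of large subunit assembly, 4 were higher and 2 were lower under each drug, so 60% were called, near the 58.3% and 59.2% of all genes tested. BOP1, PES1 and WDR12 form one complex, PeBoW, needed to mature the 60S RNA, and they did not move together. BOP1 was at 56.02, 56.8, 65.3 and 62.0 CPM under etoposide, at 52.9, 55.4 and 57.5 CPM under tozasertib and at 84.8, 65.0, 72.2 and 62.3 CPM under DMSO. PES1, or pescadillo, was at 94.4, 99.6, 111.2 and 101.2 CPM under etoposide, at 96.2, 99.1 and 100.3 CPM under tozasertib and at 140.5, 115.1, 111.6 and 102.0 CPM under DMSO. WDR12 was at 77.9, 81.0, 88.2 and 88.7 CPM under etoposide, at 80.1, 81.4 and 84.6 CPM under tozasertib and at 67.1, 64.1, 68.5 and 68.6 CPM under DMSO. WDR12 was above its DMSO samples in all 7 drug samples (log2 fold changes 0.32 and 0.29, edgeR adjusted p = 0.000264 and 0.00108). BOP1 was lower under etoposide (log2 fold change -0.24, edgeR adjusted p = 0.0326) and under tozasertib (-0.36, edgeR adjusted p = 0.00603), whereas PES1 was called lower under tozasertib (-0.25, edgeR adjusted p = 0.0333) and not under etoposide (-0.21, edgeR adjusted p = 0.054).

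Several of these calls lay close to the threshold and ended when a library was left out. The BOP1 call under etoposide ended without etoposide replicate 1 (edgeR adjusted p = 0.0887) or 2 (0.0848) and without DMSO replicate 1 (0.0654) or 3 (0.0645). Its log2 fold change was then -0.21, -0.22, -0.15 and -0.24, so that it moved by over 1.5 times only without DMSO replicate 1. The PES1 call under tozasertib ended without any one of tozasertib replicates 1, 2 and 4 (edgeR adjusted p = 0.0984, 0.0746 and 0.0615), while its log2 fold change stayed at -0.24, -0.26 and -0.27. PES1 was called lower under etoposide without etoposide replicate 3 (edgeR adjusted p = 0.0338) or DMSO replicate 4 (0.0103), without the filter on low counts (0.0265) and on length-scaled counts (0.045). With the replicate number as a block, the calls of BOP1 under etoposide (edgeR adjusted p = 0.0509) and PES1 under tozasertib (0.0773) ended. On counts scaled for transcript length, WDR12 lost its call (edgeR adjusted p = 0.378 under etoposide and 0.31 under tozasertib). Those counts also ended the calls of WDR74 under etoposide and RRS1 under tozasertib. On protein-coding transcripts alone, the calls of BOP1, GAR1 and RRP9 under etoposide and of PES1 and DKC1 under tozasertib ended, as did that of PES1 with library size alone and that of GAR1 without DMSO replicates 1 and 4.

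Of the other genes of the class, DDX21, an RNA helicase that acts at rRNA genes and on the precursor, was the most abundant, at 336.8 to 375.5 CPM under etoposide, 372.7 to 391.5 CPM under tozasertib and 250.3 to 340.3 CPM under DMSO, with log2 fold changes of 0.24 (edgeR adjusted p = 0.0225) and 0.32 (edgeR adjusted p = 0.00675). NOP2, a methyltransferase of the 60S RNA, had log2 fold changes of 0.23 and 0.31, and RRS1, which helps load the 5S particle in yeast, of 0.40 and 0.24. WDR74 was lower under etoposide (-0.25, edgeR adjusted p = 0.0247) and not called under tozasertib (-0.09). NOP16, PPAN and the nucleostemin gene GNL3 were not called under either drug, with log2 fold changes between -0.14 and 0.23. A read-through gene that joins PPAN to its neighbour P2RY11 held 24.5% as many reads as PPAN, so the level of PPAN is uncertain. The DDX21 call under etoposide ended without etoposide replicate 3 (edgeR adjusted p = 0.056) or 4 (0.0616), the WDR74 call without etoposide replicate 2 (0.0556), and the RRS1 call under tozasertib without tozasertib replicate 4 (0.107). NOP16 was called higher under etoposide (log2 fold change 0.35, edgeR adjusted p = 0.000333) and tozasertib (0.28, edgeR adjusted p = 0.0026) without DMSO replicate 1, its highest library, and PPAN lower under etoposide without DMSO replicate 4 (-0.23, edgeR adjusted p = 0.0107). GNL3 was called higher under both drugs with library size alone (log2 fold changes 0.15 and 0.20, edgeR adjusted p = 0.0235 and 0.00829) and on length-scaled counts (0.21 and 0.24, edgeR adjusted p = 0.00914 and 0.00703).

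Between the drugs, no gene of the set was called. Of 36 genes, 0 differed between tozasertib and etoposide by edgeR, where 11.1% of all genes tested did (5.66% higher and 5.45% lower), and 0 also did by DESeq2. At an unadjusted edgeR p under 0.05 the count was also 0, and the lowest edgeR adjusted p was 0.231, for PPAN (log2 fold change 0.19). Log2 fold changes of tozasertib over etoposide ran between -0.20 for FBL and 0.19 for UTP20 and PPAN, with a median of -0.01, beside 0.01 over all genes. Tozasertib and etoposide samples did not overlap for 6 of the 36, against 30.9% of all genes. These counts depended on the DMSO samples, which share in the estimate of the spread: without DMSO replicate 1, FBL was called lower under tozasertib than under etoposide (log2 fold change -0.20, edgeR adjusted p = 0.0454), and without DMSO replicates 1 and 4, FBL was lower (edgeR adjusted p = 0.00954) and UTP20 (0.0246), PPAN (0.0317) and WDR74 (0.0225) were higher. Genes called against DMSO under one drug only, such as BYSL, PES1, GAR1, RRP9 and WDR74, are therefore not shown to differ between the drugs.

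Per transcript length, the order of levels was led by NPM1 in every group, at 1292 ± 86.1 TPM under etoposide (SD, n = 4), 1289 ± 29.5 TPM under tozasertib (SD, n = 3) and 1827 ± 245 TPM under DMSO (SD, n = 4). NCL, NOP10 and NHP2 took the next 3 places in each group. FBL was 5th in DMSO-treated cells, at 274.7 ± 24.1 TPM, 14th under etoposide, at 76.6 ± 4.6 TPM, and 15th under tozasertib, at 70.6 ± 2.5 TPM. POLR1A and UTP20 were at the low end, between 7.32 and 12.8 TPM on average. In DMSO-treated cells, 29 of the 35 pairs of neighbours in this order had overlapping samples, so most neighbouring places cannot be told apart. As a description with no test, the 36 genes together made up 4153 ± 118 TPM under etoposide, 4313 ± 19.9 TPM under tozasertib and 4807 ± 319 TPM under DMSO. Without NPM1 and NCL the sums were 2538 ± 66.3 TPM under etoposide, 2692 ± 31.3 TPM under tozasertib and 2556 ± 60.9 TPM under DMSO. Of the reads of the 36 genes, 4.27% ± 0.825 under etoposide, 4.71% ± 0.622 under tozasertib and 4.26% ± 0.519 under DMSO (SD) were assigned to transcripts annotated as retained introns, a difference within the spread between replicates.

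Longer genes of the set tended to have the higher log2 fold changes. Across the 36 genes, the log2 fold change correlated with effective length at a Spearman rho of 0.475 under etoposide and 0.477 under tozasertib, beside 0.064 and 0.097 over all genes tested. Genes are not independent replicates, and both values rest on the same DMSO samples, 2 of which followed length as described. Under etoposide and under tozasertib the values were 0.388 and 0.385 without DMSO replicate 1, and 0.517 and 0.519 without DMSO replicate 4. Without both they were 0.423 and 0.432. The length-scaled counts use a constant mean length per gene, so they do not remove a trend with length across genes. The part of length in the calls was not tested.

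**Figure D5:**
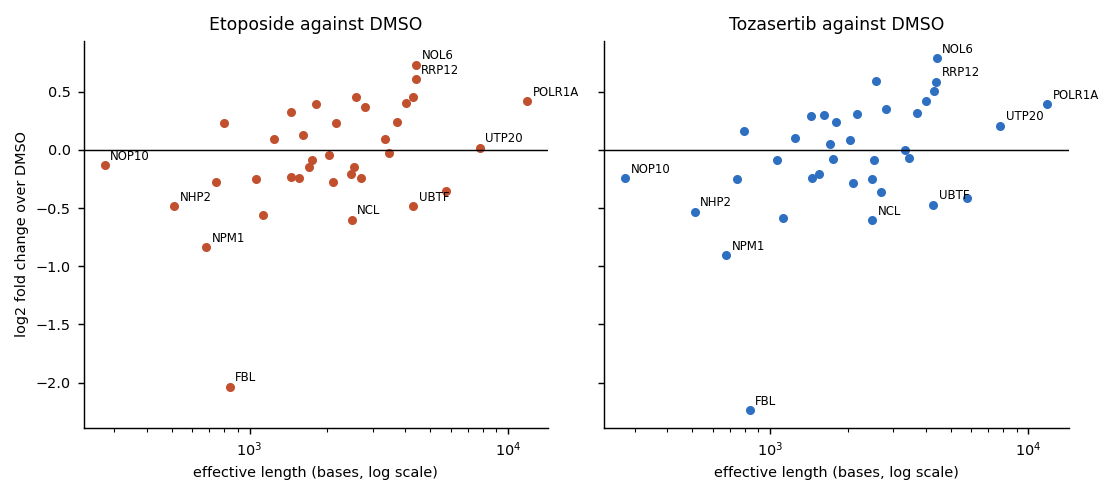
Log2 fold change over DMSO (y axis) of the 36 genes against the effective length of their transcripts (x axis, bases, log scale), for etoposide (left) and tozasertib (right); each point is a gene. FBL, NPM1 and NHP2, all short, lie below 0, and NOL6, RRP12 and POLR1A, all long, lie above it, while the long UBTF lies below.

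Other genes of the pathway, from lists that exclude the 36, moved in both directions. Over all genes tested, 27.7% were higher and 30.6% lower under etoposide, and 29.9% higher and 29.4% lower under tozasertib. Of 38 further genes of the small subunit processome and 40S maturation, 10 were higher and 13 lower under etoposide (median -0.09), and 10 higher and 7 lower under tozasertib (median -0.00). NOP9 was higher under both (log2 fold changes 0.49 and 0.52), UTP18 was lower under etoposide (-0.76) and PNO1 higher under tozasertib (0.57). Of 50 further genes of 60S assembly and export, 12 were higher and 19 lower under etoposide (median -0.07), and 15 higher and 17 lower under tozasertib (median -0.04). PDCD11, known from yeast for a role in processing the precursor, was higher under both (0.88 and 0.84), EFL1, a GTPase of late 60S maturation, was lower under etoposide (-0.62), and NOP53 was lower under tozasertib (-1.06). Of 12 further Pol I subunits and factors, 3 were higher and 4 lower under each drug, with POLR1F higher (0.55 and 0.61) and TAF1B, a subunit of the promoter factor SL1, lower (-0.60 and -0.46). The polymerase subunits in this list went both ways. POLR1C was also higher under both drugs and POLR1E under etoposide, whereas POLR1H was lower under both and POLR1D under tozasertib.

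Some lists had calls mostly or wholly in the lower direction. The background of all genes tested was 30.6% lower under etoposide, 29.4% under tozasertib and 5.45% for tozasertib against etoposide. Of 22 tested genes of the RNA exosome, which trims rRNA, and of RNase MRP, 15 were lower and 0 higher under etoposide (median -0.31), and 13 were lower and 0 higher under tozasertib (median -0.40), led by EXOSC8 (-1.33 and -1.30) and EXOSC9 (-1.11 and -1.05). Of 11 snoRNP assembly factors, 3 were higher and 5 lower under etoposide, and 1 was higher and 5 lower under tozasertib, with PIH1D1, of the R2TP complex that helps build box C/D particles, at -0.65 and -0.78, ZNHIT6 at 0.45 under etoposide and RPAP3 at -0.37 under tozasertib. Of the 79 cytosolic ribosomal protein genes, 49 were lower and 0 higher under etoposide (median -0.33), and 77 were lower and 0 higher under tozasertib (median -0.70), among them RPS4X (-0.67) and RPL10 (-0.67) under etoposide and RPL4 (-0.93) and RPS2 (-0.97) under tozasertib. Their summed level was 48937 to 57256 CPM under etoposide, 39037 to 44347 CPM under tozasertib and 59210 to 88185 CPM under DMSO. Between the drugs, 26 ribosomal protein genes were lower under tozasertib than under etoposide and 0 were higher (median -0.37), among them RPS6 (-0.52) and RPL4 (-0.48). In that comparison the other lists of ribosome biogenesis held few calls. MPHOSPH10 (0.19, edgeR adjusted p = 0.0467) and EXOSC10 (0.27, edgeR adjusted p = 0.0488) were higher and NOP53 (-0.39, edgeR adjusted p = 0.0241) was lower under tozasertib. Outside these lists, MKI67, TOP2A, CCNB1 (-0.78, edgeR adjusted p = 0.00053) and LMNB1 (-0.72, edgeR adjusted p = 0.000406) were also lower under tozasertib than under etoposide. CDKN1A was not called there. Of the marker genes, PAX3, PMEL and SOX10 were higher and COL1A1 was lower under tozasertib. In the MYC and MAX network, 5 of 11 tested genes were higher and 4 lower under etoposide, and 4 higher and 3 lower under tozasertib, with MXD1, a MAX partner that opposes MYC, higher (0.70 and 0.69) and its relative MXD3 lower (-1.85 and -2.19).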

How the data were processed

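The deposited files hold, per the file headers, 1 line per transcript with estimated counts, TPM values and an effective length, as Salmon writes them. The authors made strand-specific libraries of polyadenylated RNA, and the submitters' notes name cutadapt 4.7, Salmon 1.9.0, R 4.4.2 and DESeq2 1.40.2 and the build GRCh38. The deposited estimated counts are not normalized, and the authors' TPM values are scaled for length and total. Salmon's transcript release is not given in the sources used here.

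Estimated counts were summed to genes with GENCODE release 44 and rounded. Of 251645 transcripts, 907 had no match, and these held 0.318% to 0.359% of the reads. Genes were tested with edgeR 4.0.16 in R 4.3.3 (quasi-likelihood, two-sided, TMM, filterByExpr, 1 mean per group over all 11 samples, Benjamini-Hochberg over 17033 genes), tested on simulated data first. Alternatives were DESeq2 1.42.0, library size alone, no filter, length-scaled counts, protein-coding transcripts, a replicate block, and leaving out libraries. No replicates agreed within sampling noise. All 36 genes are named; values per sample are given for 14 genes chosen by role and for the 3 highest and 3 lowest called genes of each comparison, and of each other list the 2 called genes with the smallest adjusted p. The 36 genes and all lists were chosen with earlier results of these data known. Promoter letters are from RefSeq (GRCh38.p14).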

Additional observations from a re-analysis of the deposited data

Results flagged for a closer look

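In 72 groups of 4 samples, 2 held a sample far from the other 3, where chance gives about 1 in 20 groups. NHP2 was at 145.7 CPM in DMSO replicate 1, against 91.4 to 99.8 CPM in the other DMSO samples. NOP2 was at 106.4 CPM in etoposide replicate 2, against 115.9 to 117.2 CPM in the other etoposide samples.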

How the results depend on the processing

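Of the genes called against DMSO, 17 of 24 under etoposide and 17 of 23 under tozasertib kept their direction and their call under every alternative run. Of the others, NOP56 turned round on protein-coding transcripts, where it was called higher under etoposide and was not called under tozasertib. The counts of genes called ran between 10 and 13 higher and 10 and 15 lower under etoposide, and between 10 and 13 higher and 10 and 14 lower under tozasertib, when single libraries were left out. Between the drugs they ran from 0 to 0 higher and 0 to 1 lower, with 1 lower without DMSO replicate 1, and 3 higher and 1 lower without DMSO replicates 1 and 4. Correlations of same-numbered samples lay between -0.095 and 0.227, with 2 of 10 above 0.1. Between etoposide and tozasertib samples they were 0.227, 0.091 and 0.123, while those with different numbers ran from -0.207 to 0.160. Whether replicate numbers pair the samples of the drugs was not settled. With the replicate block, 11 genes were higher and 12 lower under etoposide, 12 higher and 11 lower under tozasertib, and 0 differed between the drugs. The block ended the calls of BOP1 under etoposide and PES1 under tozasertib and added that of GAR1 under tozasertib. With library size alone, the median log2 fold change over all genes was 0.040 under etoposide and 0.112 under tozasertib. In the fit reported those medians were -0.012 and 0.023. Some log2 fold changes turned round under other settings, all but those of NOP56 from genes not called, and the cause was not tested. Under etoposide these were NOP14 (DESeq2 0.0046, library size alone 0.029, protein-coding transcripts 0.023, and -0.049 to 0.020 over single libraries left out), UTP15 (library size alone 0.0048, length-scaled 0.15), NOP56 (protein-coding 0.14), NOP10 (-0.21 to 0.018 over single libraries left out, above 0 without DMSO replicate 1) and UTP20 (-0.077 to 0.17, below 0 without DMSO replicate 1, DMSO replicate 2 or etoposide replicate 4). Under tozasertib they were NOLC1 (DESeq2 -0.00045, no filter -0.0093, length-scaled -0.011, without DMSO replicates 1 and 4 -0.033, -0.027 to 0.014 over single libraries left out), UTP4 (0.016), NOP14 (0.021), DDX10 (0.00042) and WDR74 (0.0089) with library size alone, WDR74 (0.015) and PPAN (-0.073) on length-scaled counts, NOP56 (0.078) and DDX10 (0.029) on protein-coding transcripts, PPAN without DMSO replicates 1 and 4 (-0.00022) and, over single libraries left out, PPAN (-0.028 to 0.11, below 0 without DMSO replicate 4) and WDR74 (-0.16 to 0.0036, above 0 without DMSO replicate 1). Other calls gained were NOP16 under etoposide by DESeq2 (adjusted p = 0.0296), with library size alone (0.011) and without the filter (0.0283), NOP16 under tozasertib with library size alone (0.0255), and PPAN under etoposide on length-scaled counts (0.0498). Without DMSO replicates 1 and 4, edgeR also called BYSL, PES1, NOP16 and PPAN under etoposide and RRP9, UTP20 and NOP16 under tozasertib. DKC1 lost its tozasertib call on protein-coding transcripts (edgeR adjusted p = 0.0551). The difference in summed TPM of the 36 genes was -654 under etoposide (-802 to -561 over libraries left out) and -494 under tozasertib (-642 to -402), and 160 for tozasertib minus etoposide (107 to 196); without NPM1 and NCL it was -17.5 under etoposide and 137 under tozasertib. The difference in retained-intron share ran between -0.38 and 0.27 percentage points under etoposide over libraries left out (below 0 without etoposide replicate 1 or DMSO replicates 2, 3 or 4), between 0.0938 and 0.705 under tozasertib (0.45 with all libraries, lowest without tozasertib replicate 1) and between 0.0773 and 0.835 for tozasertib minus etoposide (0.434 with all, lowest without tozasertib replicate 1). The share of the long UBTF form differed from DMSO by -13.4 to -10.5 points under etoposide and -3.504 to 3.07 under tozasertib when single libraries were left out. Over all genes, 964 were higher and 929 lower under tozasertib than etoposide by edgeR, and 1034 and 1550 by DESeq2, which called 47 ribosomal protein genes lower, 2 genes of 60S assembly lower and 1 of snoRNP assembly lower; library size alone called 2 of 60S assembly higher and 0 of the exosome, and under tozasertib 16 small subunit genes higher, 1 Pol I gene lower and 2 snoRNP assembly genes higher.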
